A study of Schizosaccharomyces pombe with 6 samples.

Results

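The genes described here are the translation initiation and elongation factors of fission yeast, *Schizosaccharomyces pombe*, together with the release factors that end translation. They were taken by gene symbol from the array's annotation, as every probe set naming a single *S. pombe* gene called tif, tef, eft, sui or sup with a number, or called int6. The rule gave 21 probe sets for 21 genes. The annotation names a single matched *S. pombe* gene for 2917 probe sets, covering 2899 genes. All *S. pombe* probe sets, in what follows, means these 2917. Probe sets not named in this way are not counted, so translation factor genes among them are not covered here. The rule itself used no measured value, but members were chosen with earlier results of these data known. All 21 symbols are those of translation factors. Of the initiation factor genes 17 were covered, with 2 elongation and 2 release factor genes. The elongation factors eEF1A and eEF2 are encoded by near-identical copies that share a probe set each. These are tef102, ef1a-c and ef1a-a on one, and eft201 and eft202 on the other. Both probe sets name several genes and are outside the 21. A single-gene probe set for an eEF1A gene, named ef1a-a on the array, is also outside the 21 because of its symbol.

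Total RNA was measured on 6 Affymetrix arrays, 3 of an isp7+ null strain and 3 of wild type cells. Both strains were grown to mid-log phase in Edinburgh minimal medium with 5 g/L ammonium chloride at 30 degrees. Isp7 is related to 2-oxoglutarate- and iron-dependent dioxygenases, and the study asks, by its title, how it takes part in amino acid uptake under TOR, a nutrient-responsive kinase that controls growth. The labels name no marker, no mating type and no further allele, and do not say whether arrays of 1 group came from separate cultures, so the spread between arrays may be partly technical.

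Translation starts when initiation factors bring the initiator tRNA and the small ribosomal subunit to a capped messenger RNA. eIF2 carries the initiator tRNA as a GTP-bound complex and eIF2B recharges it with GTP, eIF3 is the large scaffold on the small subunit, and eIF4E and eIF4G bind the cap and recruit the ribosome. Elongation factors then deliver aminoacyl-tRNA and move the ribosome, and the release factors eRF1 and eRF3 free the finished protein at a stop codon. In yeast the genes of this machinery are highly expressed in growing cells and are regulated with growth through TOR. Kinases that phosphorylate eIF2 act on the protein and slow initiation.

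Values are log2 probe set values. In what follows, higher and lower describe a limma adjusted p under 0.05 in the comparison of isp7 null with wild type, and rose and fell also ask for a change of at least 1.5-fold, both thresholds named in the series' design text. The isp7 transcript itself was at 6.02, 6.38 and 6.17 in the null arrays, below the array background of 7.08, and at 11.70, 11.63 and 11.55 in the wild-type arrays. That is the direction the labels give. Arrays of 1 group correlated at 0.998 to 0.999 and arrays of different groups at 0.974 to 0.978 over all *S. pombe* probe sets.

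Most translation factor transcripts were lower in the isp7 null, by small amounts. Of the 21 genes 16 were lower, 1 was higher and 4 did not pass the limma adjusted p. Over all 2917 probe sets the same fit had 41.3% lower and 29.3% higher. The members' 76.2% lower thus stands beside a background in which most of the 2917 probe sets moved. With each array centred on its median, 13 of the 21 genes were lower and 3 higher, against 35.6% lower over all probe sets. Only tif32, the gene of the scaffold subunit eIF3a, fell by 1.5-fold or more, and none rose, against 4.39% of all probe sets that fell and 4.22% that rose. The median log2 change was -0.17 over the 21 genes and -0.05 over all probe sets. The arrays did not overlap for 20 of the genes, with all null arrays below all wild-type arrays for 18 and above them for 2. Over all probe sets the same was true of 45.2% in the lower and 30.9% in the higher direction. For tif6 and tif512, counted among the 18, the nearest arrays of the groups have the same value when rounded as printed here. For tef3 and tif452 they were barely apart. Of these genes only tef3 passed the limma adjusted p. In RNA from a whole culture, a change in the mix of cells and a change within each cell cannot be told apart.

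All 21 probe sets were well above the background of 7.08, with means over the 6 arrays between 11.21 and 15.03. Their median level was 13.78, against 11.51 for all *S. pombe* probe sets. The SD over 3 arrays lay between 0.00661 and 0.082, and the SE of a change between 0.0251 and 0.0442. The median over the 21 genes was 13.78, 13.79 and 13.80 in the null arrays, against 13.89, 13.92 and 13.92 in the wild-type arrays. The 3 null arrays lay together below the 3 wild-type arrays, and no array of either group stood apart.

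**Figure D1:**
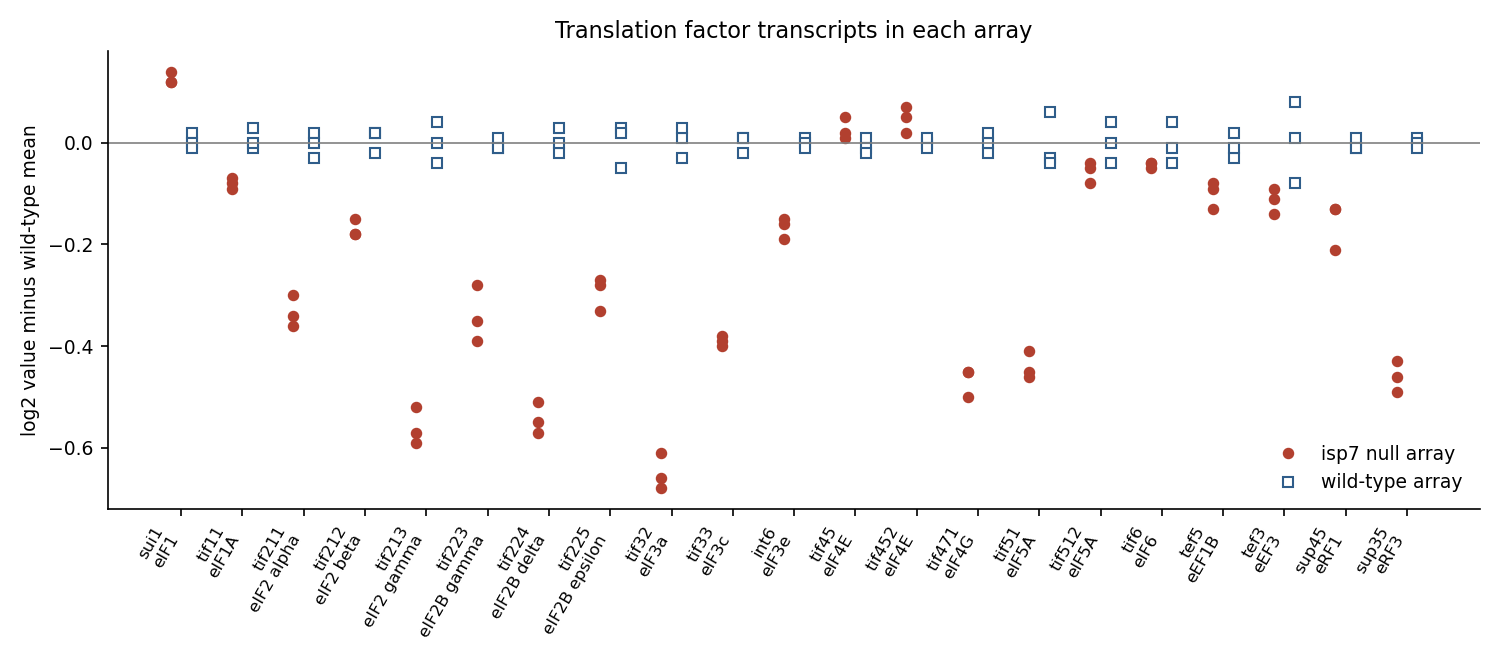
Each point is 1 array, and the vertical axis gives its log2 value minus the wild-type mean of that gene, for isp7 null arrays (filled circles, left of each gene) and wild-type arrays (open squares, right). The 3 null arrays sit below all wild-type arrays for 18 genes and above them for sui1 and tif452, both of which turn negative after gene length correction, and they overlap for tif45. Among the 18, the nearest arrays of the groups for tif6 and tif512 have the same value when rounded as plotted.

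All 3 genes of eIF2, the factor that carries the initiator tRNA, were lower in the null, to different extents. The gene of the alpha subunit, tif211, whose protein is the target of the eIF2 kinases, was at 13.86, 13.82 and 13.80 in the null arrays and at 14.18, 14.16 and 14.13 in the wild-type arrays. The beta subunit gene tif212 was at 14.70, 14.70 and 14.73 in the null and at 14.90, 14.90 and 14.86 in wild type. The GTP-binding gamma subunit gene tif213 was at 12.79, 12.77 and 12.84 in the null and at 13.32, 13.40 and 13.36 in wild type. Null and wild-type arrays did not overlap for any of the 3. The log2 changes were -0.33 (SE 0.0283) for tif211, -0.17 (SE 0.0265) for tif212 and -0.56 (SE 0.0324) for tif213. Their limma adjusted p were 5.02e-05, 0.000812 and 1.19e-05. In the null, tif213 stood at 67.8% of the wild-type signal, 1.48-fold lower, just short of the 1.5-fold threshold.

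Genes of eIF2B, the exchange factor of eIF2, were lower for all 3 measured subunits. The delta subunit gene tif224, part of the regulatory portion that senses phosphorylated eIF2, was at 10.91, 10.97 and 10.93 in the null arrays, against 11.46, 11.51 and 11.48 in the wild-type arrays. Its log2 change was -0.55 (SE 0.0289, limma adjusted p = 9.46e-06), or 1.46-fold lower. The gamma and epsilon subunits, whose epsilon member carries the catalytic exchange activity, are encoded by tif223 and tif225. Null means were 12.65 ± 0.0548 for tif223 and 12.03 ± 0.0314 for tif225, and wild-type means 12.99 ± 0.013 and 12.32 ± 0.0415 (SD, n = 3 each). Their changes of -0.34 (SE 0.0342) and -0.29 (SE 0.0329) had limma adjusted p of 0.000108 and 0.000181. Of the 21 genes tif224 had the lowest signal.

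The eIF3 genes held the largest change among the 21. The scaffold subunit gene tif32 (eIF3a, current symbol tif301) was at 12.53, 12.46 and 12.48 in the null arrays and at 13.15, 13.17 and 13.11 in the wild-type arrays. Its signal was 1.57-fold lower in the null (log2 change -0.65, SE 0.0313, limma adjusted p = 7.16e-06), and 2.9% of all *S. pombe* probe sets had a change at or below it. For tif33 (eIF3c, current symbol tif303), another core subunit, the values were 13.53, 13.51 and 13.52 in the null and 13.89, 13.92 and 13.92 in wild type, a change of -0.39 (SE 0.0251, limma adjusted p = 1.71e-05). For int6, the gene of the eIF3e subunit that is found in only some eIF3 complexes of fission yeast, they were 14.04, 14.01 and 14.05 in the null and 14.21, 14.20 and 14.19 in wild type. That change was -0.17 (SE 0.0268, limma adjusted p = 0.00113). In all 3 genes the null arrays lay below the wild-type arrays.

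The cap-binding genes and the gene of their scaffold partner had unlike values. The eIF4G gene tif471 was at 13.44, 13.39 and 13.44 in the null arrays and at 13.87, 13.89 and 13.91 in the wild-type arrays, 1.38-fold lower (log2 change -0.47, SE 0.0279, limma adjusted p = 1.29e-05). The eIF4E gene tif45 was at 13.78, 13.79 and 13.82 in the null and at 13.78, 13.76 and 13.75 in wild type, and the groups overlapped. A further eIF4E gene, tif452, was at 12.33, 12.36 and 12.38 in the null and at 12.31, 12.32 and 12.30 in wild type. Neither eIF4E gene passed, with limma adjusted p of 0.324 for tif45 and 0.122 for tif452. The 95% intervals of their log2 changes were -0.03 to 0.09 and -0.01 to 0.12. A fall as large as that of tif471 in the deposited values lies outside both. After gene length correction the change of tif471 was -0.24 (limma adjusted p = 0.000447). The small positive change of tif452 passed at 0.08 to 0.11 with repeated quantile normalization, median centring and cyclic loess, that of tif45 passed at 0.08 with median centring, and both turned negative after gene length correction.

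Genes of the start-site selection factors eIF1 and eIF1A had opposite signs in the deposited values. The eIF1 gene sui1 was the only higher gene of the 21, at 14.92, 14.90 and 14.90 in the null arrays and at 14.80, 14.78 and 14.77 in the wild-type arrays. Its change of 0.13 (SE 0.0253, limma adjusted p = 0.00334) turned to -0.03 (adjusted p = 0.300) after gene length correction. The eIF1A gene tif11 was at 14.51, 14.50 and 14.52 in the null and at 14.62, 14.58 and 14.59 in wild type, a change of -0.08 (SE 0.0259, limma adjusted p = 0.0245). That call was lost without wild-type array 1 (limma adjusted p = 0.0708), wild-type array 3 (0.0586) or null array 2 (0.0694), with median centring (0.314) and with all probe sets of the array (0.140), and the change was -0.22 (limma adjusted p = 0.000213) after gene length correction.

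eIF5A, the hypusine-containing factor that helps the ribosome through difficult peptide bonds, has a pair of genes in fission yeast, tif51 and tif512. The tif51 transcript was at 14.01, 13.97 and 13.96 in the null arrays and at 14.39, 14.48 and 14.38 in the wild-type arrays, 1.35-fold lower in the null (log2 change -0.43, SE 0.0358, limma adjusted p = 4.43e-05). The tif512 transcript was at 14.98, 15.01 and 15.02 in the null and at 15.02, 15.10 and 15.06 in wild type. Its change of -0.06 did not pass (limma adjusted p = 0.123, 95% interval -0.13 to 0.01), but passed with an intensity trend in the variance (0.0352) and was -0.26 (limma adjusted p = 0.000238) after gene length correction. The probes of both genes were not examined here, so cross-hybridization between them was not tested. The gene of eIF6, tif6, which keeps the large ribosomal subunit from joining too early, was at 14.23, 14.24 and 14.24 in the null and at 14.32, 14.27 and 14.24 in wild type. Its change of -0.04 did not pass (limma adjusted p = 0.228, 95% interval -0.11 to 0.03) and was 0.0068 with median centring, while it passed at -0.09 with repeated quantile normalization (limma adjusted p = 0.0301) and at -0.08 after gene length correction (0.0326).

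Changes of the elongation factor genes were small. The gene of the eEF1A exchange factor, tef5, was at 14.87, 14.88 and 14.83 in the null arrays and at 14.93, 14.95 and 14.98 in the wild-type arrays, a change of -0.09 (SE 0.0279, limma adjusted p = 0.0191). It lost the call without wild-type array 3 (limma adjusted p = 0.0742) or null array 3 (0.0624), with median centring (-0.05, 0.247), on testing all probe sets of the array (0.106) and with repeated quantile normalization (0.0548). After gene length correction tef5 stood at -0.17 (limma adjusted p = 0.00153). The gene of the fungal ATPase eEF3, tef3, was at 14.24, 14.19 and 14.22 in the null and at 14.25, 14.41 and 14.34 in wild type. The highest null array, at 14.24, was barely below the lowest wild-type array, at 14.25. The change of tef3, -0.12 (SE 0.0442), had a limma adjusted p of 0.0487. That call ended without any one array other than wild-type array 1 (0.0620 to 0.135), with median centring (-0.07, 0.226), cyclic loess (0.0516), no variance moderation (0.106) and all probe sets of the array (0.134). After gene length correction tef3 stood at 0.04. The probe set shared by the eEF1A genes was at 15.06, 15.04 and 15.07 in the null and at 15.08, 15.19 and 15.13 in wild type, and that shared by both eEF2 genes at 15.10, 15.07 and 15.09 in the null and 15.17, 15.16 and 15.15 in wild type. Both are close to the highest value of the array, 15.65.

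The release factor genes were both lower, with the larger change in the GTPase. The eRF3 gene sup35 was at 13.00, 13.03 and 13.06 in the null arrays and at 13.50, 13.49 and 13.48 in the wild-type arrays, 1.38-fold lower (log2 change -0.46, SE 0.0272, limma adjusted p = 1.26e-05). The eRF1 gene sup45 (current symbol erf1), whose protein reads the stop codon, was at 13.59, 13.51 and 13.59 in the null and at 13.71, 13.73 and 13.71 in wild type. Its change was -0.16 (SE 0.0312, limma adjusted p = 0.00328). Both genes were separated completely between the groups.

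Changes of genes whose products work in 1 complex or step were compared array by array for all 15 pairs within eIF2, eIF2B, eIF3, eIF4F, eIF5A, elongation and release. For 12 pairs the exact two-sided permutation test gave p = 0.1, the smallest that 3 against 3 arrays allow, and p = 0.125 after Benjamini-Hochberg adjustment over the pairs, so no pair could pass. The change of tif32 was lower than that of int6 by 0.49 on the log2 scale. For tif51 against tif512 the difference of changes was -0.37, for tif45 against tif471 it was 0.50, and for sup45 against sup35 it was 0.31. These differences are from the deposited values, and the pairs were not compared after gene length correction. Single corrected changes were -0.51 for tif32 and -0.15 for int6, -0.52 for tif51 and -0.26 for tif512. They were -0.01 for tif45 and -0.24 for tif471, and -0.11 for sup45 and -0.36 for sup35. The pairs tif223 with tif225 (-0.04, p = 0.3 in the exact permutation test), tif45 with tif452 (-0.02, p = 0.2) and tef5 with tef3 (0.02, p = 0.8) had overlapping differences.

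**Figure D2:**
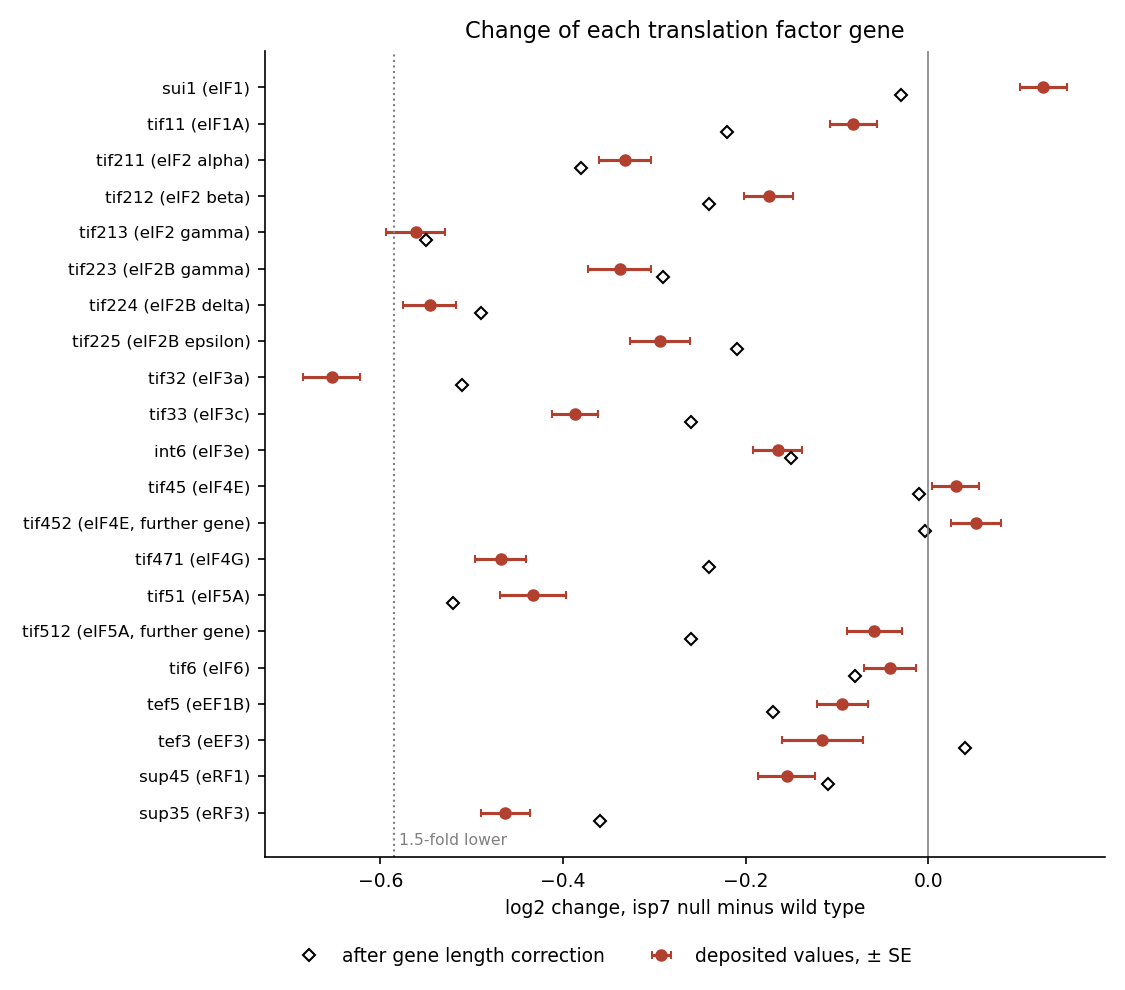
Log2 change of each gene (isp7 null minus wild type) from the deposited values with the SE of the limma fit (filled circles), and after gene length correction (open diamonds), ordered by role from initiation at the top to release at the bottom. Only tif32, at -0.65, passes the dotted 1.5-fold line, and sui1, tif45, tif452 and tef3 change sign under the correction.

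Among the 21 genes the signed change tended to be higher at higher signal level and lower in longer genes. Larger falls thus tended to lie at lower signal and in longer genes. Spearman's rho of the change with the mean level was 0.545 over the 21 genes and 0.037 over all 2917 probe sets, and over the 21 genes it was 0.283 once the changes were corrected for gene length. With gene length it was -0.61 over the 21 genes and -0.367 over all probe sets. These are descriptions across genes of the same 6 arrays, and genes are not independent replicates. The 9 members at a level of 14 or more had a median change of -0.09 and ranged from -0.43 to 0.13, and 6 of them were lower, against 29.5% of all probe sets at that level. The 7 members from 13 to 14 had a median of -0.39, and 6 were lower, against 41.2% of all. Of the 4 members from 12 to 13, 3 were lower, against 43.1% of all, and the 1 member below 12, tif224, was lower, against 42.7% of all. Over all probe sets the spread of changes was also narrower at 14 or more (SD 0.239, 288 probe sets) than from 13 to 14 (SD 0.375, 335 probe sets). With a correction that removed the array-wide trend on gene length, 17 of the 21 genes were lower and none was higher, against 38.1% lower over all probe sets. The largest corrected changes were those of tif213 (-0.55), tif51 (-0.52) and tif32 (-0.51), so that none passed 1.5-fold, and the correction moved that of tif471 to -0.24 (limma adjusted p = 0.000447).

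**Figure D3:**
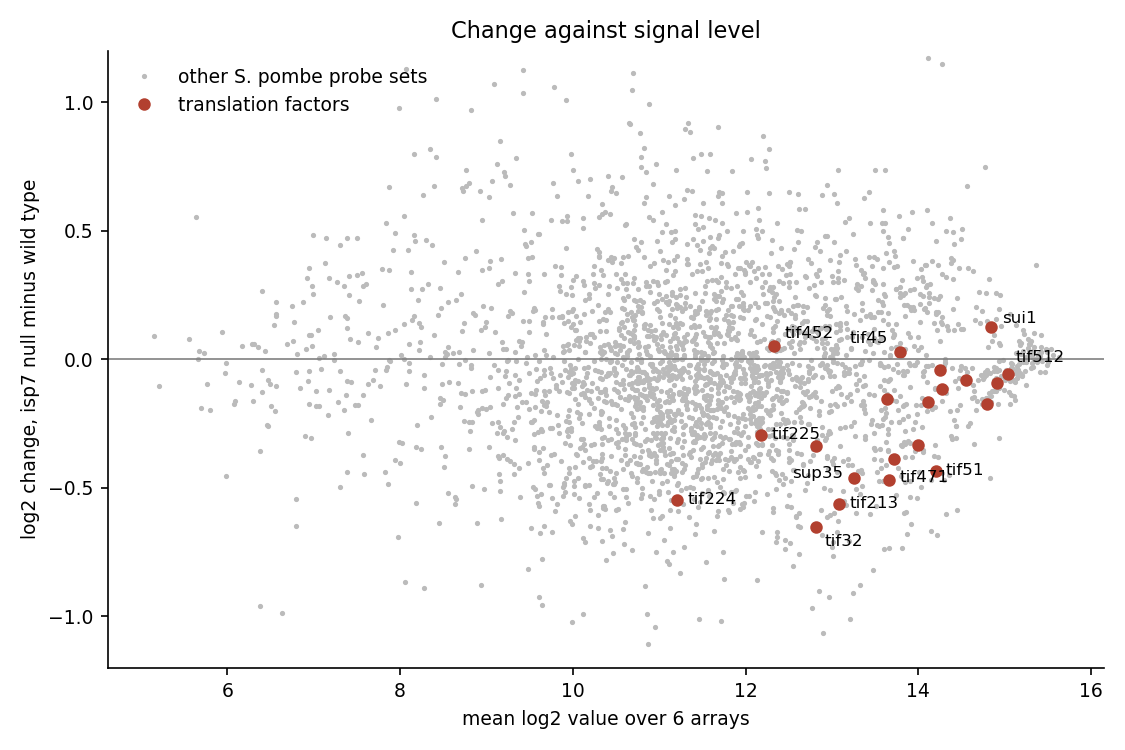
Log2 change (isp7 null minus wild type) against the mean log2 value over 6 arrays for the 21 translation factors (large points, some named) and all other *S. pombe* probe sets (small points). The factors with values near 15 lie close to 0 and the lowest points are tif32, tif213 and tif224, and 31 other probe sets with a change beyond 1.2 in either direction are outside the axis.

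Further genes of translation came from lists that, like the members, were chosen with earlier results of these data known. Among 19 measured, 13 were lower and 3 higher, where 41.3% of all probe sets were lower and 29.3% higher. For initiation factors and eIF2 kinases with their regulators, 5 of 8 and 3 of 10 listed genes were measured. For elongation, release and recycling factors it was 1 of 11, for factor modification 7 of 12 and for mitochondrial factors 3 of 9. Of 5 measured genes listed as other initiation factors or proteins that work with them, all were lower, with a median of -0.18. None fell by 1.5-fold. They include further eIF3 genes, sum1 (eIF3i), with 14.55, 14.61 and 14.58 in the null arrays and 14.71, 14.70 and 14.71 in the wild-type arrays, and moe1 (eIF3d), with 13.76, 13.76 and 13.72 in the null and 13.91, 13.94 and 13.93 in wild type. Their changes of -0.12 (SE 0.027) and -0.18 (SE 0.0269) had limma adjusted p of 0.00469 and 0.000788. The others were pabp, the gene of the poly(A)-binding protein that contacts eIF4G (-0.45, SE 0.0538), sce3, which encodes an eIF4B-like protein (-0.21), and cpc2, the gene of the ribosome-bound RACK1 protein (-0.11). The call of cpc2 ended with median centring (limma adjusted p = 0.110) and with all probe sets of the array (0.0655).

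The eIF2 kinase genes, whose products slow initiation by phosphorylating eIF2 alpha, moved in both directions. The gene of the amino acid-sensing kinase, gcn2, was at 11.87, 11.92 and 11.92 in the null arrays and at 12.33, 12.24 and 12.27 in the wild-type arrays, a change of -0.38 (SE 0.0332, limma adjusted p = 5.62e-05) that was -0.13 after gene length correction. The heme-regulated kinase genes were opposite to each other. For hri2 the values were 10.54, 10.59 and 10.64 in the null and 11.04, 11.01 and 11.02 in wild type (-0.43, SE 0.0334, limma adjusted p = 3.38e-05). For hri1 they were 10.35, 10.41 and 10.42 in the null and 10.12, 10.04 and 10.14 in wild type (0.30, SE 0.0368, limma adjusted p = 0.000298), and hri1 stayed higher, at 0.40, after gene length correction. None of the 3 passed 1.5-fold.

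Genes of factor modification and of recycling held the other falls. The gene of deoxyhypusine hydroxylase, mmd1, which completes the hypusine residue on eIF5A, was at 11.92, 11.80 and 11.86 in the null arrays and at 12.45, 12.62 and 12.52 in the wild-type arrays. It fell 1.59-fold (log2 change -0.67, SE 0.0504, limma adjusted p = 3.08e-05) and stood at -0.69 after gene length correction. The gene of the ribosome recycling ATPase, rli1, was at 12.73, 12.58 and 12.61 in the null and at 13.29, 13.26 and 13.21 in wild type, a change of -0.62 that became -0.51 with that correction, short of 1.5-fold. Of 7 measured genes that modify eEF2, eIF5A or eRF1, 3 were lower and 2 higher, shares close to the 41.3% and 29.3% of all probe sets, with a median of -0.03. The diphthamide genes, which act on eEF2, were split, with dph6 (-0.45) and dph2 (-0.33) lower and dph3 (0.47) and dph4 (0.20) higher, while dph5 at -0.02 and trm112, the gene of a methyltransferase partner, at -0.03 did not pass and were positive with median centring (0.02 each), and dph5 passed at -0.07 after gene length correction (limma adjusted p = 0.0478). The call of dph4 ended after gene length correction (0.05, limma adjusted p = 0.419).

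Of 3 mitochondrial translation factor genes, tuf1, which encodes the mitochondrial counterpart of eEF1A, was lower (-0.35, SE 0.0404, limma adjusted p = 0.000203). Its exchange factor gene tsf1 was at -0.13 (limma adjusted p = 0.0282), a call lost without wild-type array 1 (0.0849), wild-type array 3 (0.0710), null array 1 (0.0521) or null array 2 (0.0617). It was also lost with cyclic loess (-0.05, limma adjusted p = 0.236), median centring (-0.08, 0.0768), repeated quantile normalization (-0.08, 0.0974), no variance moderation (0.0723) and all probe sets of the array (0.0881), and tsf1 was at -0.21 (0.00197) after gene length correction. The recycling factor gene rrf1, at 0.01, did not pass (limma adjusted p = 0.882) and was -0.11 after gene length correction. For comparison, 41 of 119 cytosolic ribosomal protein genes were lower and 4 higher, with none past 1.5-fold. Over all probe sets 41.3% were lower and 29.3% higher, and of those at a level of 14 or more 29.5% were lower. The ribosomal protein genes' share lower lay between 29.5% and 41.3%, and few of them were higher. Their median level was 15.08, close to the array's highest value of 15.65. Their changes ranged from -0.34 to 0.39.

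**Figure D4:**
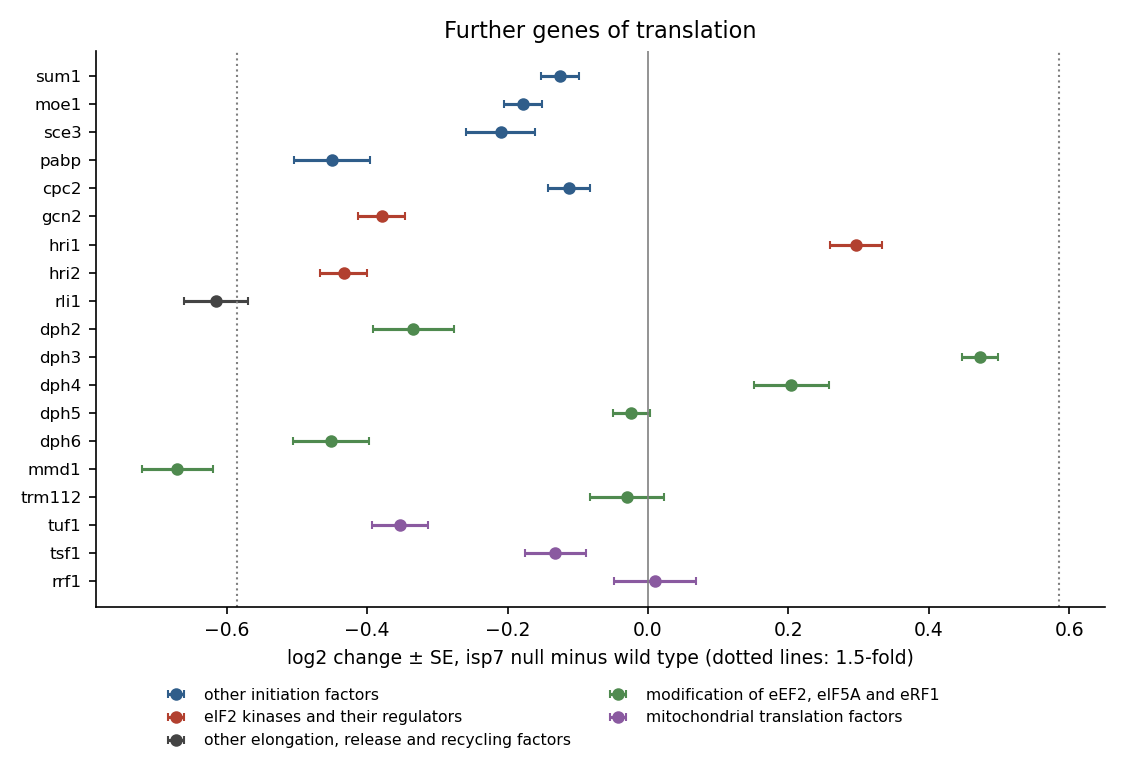
Log2 change (isp7 null minus wild type) with the SE of the limma fit for 19 further genes of translation, coloured by list. Only rli1 and mmd1 lie beyond the dotted lines at 1.5-fold, and hri1, dph3 and dph4 lie to the right of 0 and passed the test as deposited, dph4 not after gene length correction.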

How the data were processed

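The submitters' processing notes name RMA and Partek 6.5 for the log2 values that the authors deposited, 1 per probe set and array. RMA corrects background, gives all arrays 1 distribution and summarizes probes, which removes a change in total RNA per cell. Names come from the platform annotation, matched to RefSeq genes of assembly ASM294v3 by gene ID, or for 3 by symbol. Gene lengths come from that table. The background, 7.08, is percentile 95 of the mean values of 2601 *S. cerevisiae* probe sets. Precision is limited by the 3 arrays per group.

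The 2917 *S. pombe* probe sets were fitted with limma 3.58.1 in R 4.3.3 (lmFit and eBayes), as isp7 null minus wild type, with two-sided p-values adjusted by Benjamini and Hochberg over all of them. The code was tested on simulated data. Gene length correction subtracts, per array, the line of deviations on log2 gene length.

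Members and lists were chosen with earlier results of these data known, and the pairs after their values were seen. Every member is named by rule, as are list genes past 1.5-fold and gcn2, hri1, hri2, sum1, moe1 and rli1; other list genes were named after their values were seen. The list entry pab1, a phosphatase subunit gene in fission yeast, was left out. Alternatives were other variance models, normalizations, filters and probe set choices, a replicate block, updated symbols and leaving out each array.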

Additional observations from a re-analysis of the deposited data

How the results depend on the processing

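The number of translation factor genes lower in the null, 16, was 13 to 17 under all alternatives run. The share lower over all probe sets also moved, from 41.3% as deposited to 35.6% with median centring and 38.1% after gene length correction. It is not given for the other settings, so their member counts stand without a background. The number of genes lower by 1.5-fold, 1 (tif32), was 0 after gene length correction and 1 otherwise. The number higher, 1, was 2 with repeated quantile normalization, 3 with median centring, 2 with cyclic loess and 0 after gene length correction. The median change of -0.17 was -0.19 with repeated quantile normalization, -0.13 with median centring and -0.24 after gene length correction, and -0.19 to -0.17 when 1 array was left out. The labels do not say whether replicate numbers pair the arrays. Correlations of deviations were -0.116, -0.251 and 0.108 for same-numbered arrays and -0.123 to 0.25 for the others, which cannot decide it. With the replicate block 13 genes were lower, 1 was higher and the median was -0.17, and tif11, tef5 and tef3 did not pass. Signs turned after gene length correction for sui1 (-0.03), tif45 (-0.01), tif452 (-0.0032), tef3 (0.04) and rrf1 (-0.11). They turned with median centring for tif6 (0.0068), dph5 (0.02), trm112 (0.02) and tef101 (0.0053), and with repeated quantile normalization for trm112 (0.01). With 1 array left out, trm112 ranged from -0.06 to 0.02, positive without wild-type array 2 or null array 2, and rrf1 from -0.02 to 0.07, negative without wild-type array 1, null array 2 or null array 3. Other than by construction of each setting, the cause was not tested. All 21 genes had signal above background, and whether the brightest probe sets were near saturation was not tested.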

Other observations

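A single-gene probe set that the current annotation gives to tef101, a gene of eEF1A, is named ef1a-a on the array and so lies outside the 21. It was at 15.11, 15.11 and 15.10 in the null arrays and at 15.07, 15.20 and 15.17 in the wild-type arrays, and the groups overlapped. Its log2 change of -0.04 did not pass (limma adjusted p = 0.340, 95% interval -0.13 to 0.05), except without wild-type array 1 (-0.08, limma adjusted p = 0.0462), and was 0.0053 with median centring. The near-identical eEF1A copies make the value of this gene alone uncertain.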
